A study of Saccharomyces cerevisiae with 12 samples.

Results

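The genes described here are 10 regulators and early or middle genes of meiosis in budding yeast, namely IME1, IME2, IME4, UME6, RIM4, NDT80, SMK1, SPO11, HOP1 and DMC1. They were chosen by name, and 11 of the 9335 probe sets on the array were annotated to them, DMC1 holding 2. With 1 probe set kept per gene, they made up 10 of the 5656 genes tested. RNA of diploid Saccharomyces cerevisiae was hybridised to 12 Yeast S98 oligonucleotide arrays (Affymetrix), 3 cultures for each of 4 groups. The gpa2 deletion strain MLY132, which is MATa/alpha and homozygous for ura3-52 and for delta gpa2::G418, was sampled after 2 h in SLAM and in YPM, and the wild-type strain MLY61, MATa/alpha and likewise homozygous for ura3-52, under the same 2 conditions. P-values measure the spread among these cultures. The labels hold no replicate numbers. Those used here, 1 to 3, were assigned within each group in the order of deposit. Equal numbers do not link cultures of different groups. YPM is a rich maltose medium and SLAM a defined low-ammonium medium with 50 µM ammonium sulfate and 2% maltose, so the media differ in more than nitrogen. Each genotype is 1 strain, and any other difference between the strains cannot be told apart from the deletion.

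Meiosis in yeast is entered by diploid a/alpha cells that lack nitrogen and a fermentable carbon source. These signals meet at IME1, whose product, with the DNA-binding protein Ume6, switches on the early meiotic genes. Ime2 is an early kinase, and Ndt80 then activates the middle genes that drive the divisions and spore formation. GPA2 encodes a G protein alpha subunit that acts upstream of cAMP and protein kinase A, a pathway that holds IME1 down in rich medium. SLAM starves cells of nitrogen but keeps maltose, a fermentable sugar, and is used to bring out filamentous growth rather than sporulation.

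As a check of the labels, GPA2 read 5.42, 5.14 and 5.49 in deletion cells in SLAM and 5.60, 5.20 and 5.48 in deletion cells in YPM. The wild-type arrays read from 9.70 to 11.10, far from any deletion array. All values are log2 expression as deposited, and a difference is a difference of log2 means. The GPA2 readings show how high 1 probe set can read without its gene, and calls of presence or absence were not used here. IME2, SMK1 and SPO11 lay at or under 5.60, the highest of these readings, on all 12 arrays, HOP1 on 11 and RIM4 on 10. IME1, IME4, UME6, NDT80 and the tested DMC1 probe set lay above it on every array, and the other DMC1 probe set on 9 of 12. That limit comes from another probe set, so for the dim genes log2 differences are given without a fold change.

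Diploidy was looked at through 21 genes that a/alpha cells repress. Between 7 and 11 of them read at or under 5.60 on each array, among them STE2, the alpha-factor receptor of a cells, which read from 4.67 to 5.50. MFA1 (6.27 to 9.24, on a shared probe set), the alpha-cell agglutinin gene SAG1 (7.62 to 9.37) and RME1 (6.33 to 8.86) read above it on all arrays, as did MFA2, MF(ALPHA)1, STE3, STE4 and STE5. In all 8 of the 21 lay above it, and 7 at or under it, on every array. The mean over the 21 genes was 6.03 to 6.44 in deletion cells in SLAM and 5.74 to 6.06 in deletion cells in YPM. It was 6.18 to 6.54 in wild-type cells in SLAM and 5.74 to 6.14 in wild-type cells in YPM. No haploid array was analysed here to set these levels against. MFA1 and SAG1 rose in SLAM in both strains, and no other of the 21 passed (9.52% in each strain). Of all genes 28.1% passed in deletion cells (13.4% as higher) and 12.6% in wild-type cells (5.23% as higher). Differences lay below 0 for 7 of the 21 in deletion cells and for 5 in wild-type cells. The part of this list in the results below was not tested.

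In deletion cells moved to SLAM, 4 of the 10 genes rose, none fell and 6 did not pass. The 4 were IME2, IME4, DMC1 and SMK1, with log2 differences from 0.63 to 1.18. In wild-type cells none of the 10 passed. Across all genes, 28.1% passed in either direction in deletion cells (13.4% higher and 14.8% lower) and 12.6% in wild-type cells (5.23% higher and 7.34% lower), by limma with Benjamini-Hochberg adjustment at adjusted p < 0.05. The median difference of the 10 genes was 0.66 in deletion cells and 0.19 in wild-type cells, beside 0.01 and -0.05 over all genes. The deletion median was not recomputed without deletion SLAM replicate 3. Without that array the 10 deletion differences ran from -0.35 (UME6) to 0.97 (SMK1), against -0.52 to 1.18 with all arrays. Whether higher readings reflect more RNA per cell or more cells with the transcript cannot be told apart in these bulk samples. With deletion SLAM replicate 1 or 3, or deletion YPM replicate 1 or 2, left out, 1 member passed, and with deletion YPM replicate 3 left out 2 did. With deletion SLAM replicate 2 left out 6 passed, 5 higher and 1 lower. In these fits 945 to 1610 of the 5656 genes passed. Without deletion SLAM replicate 3, 22.2% of all genes passed, and the 1 member was SMK1.

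**Figure D1:**
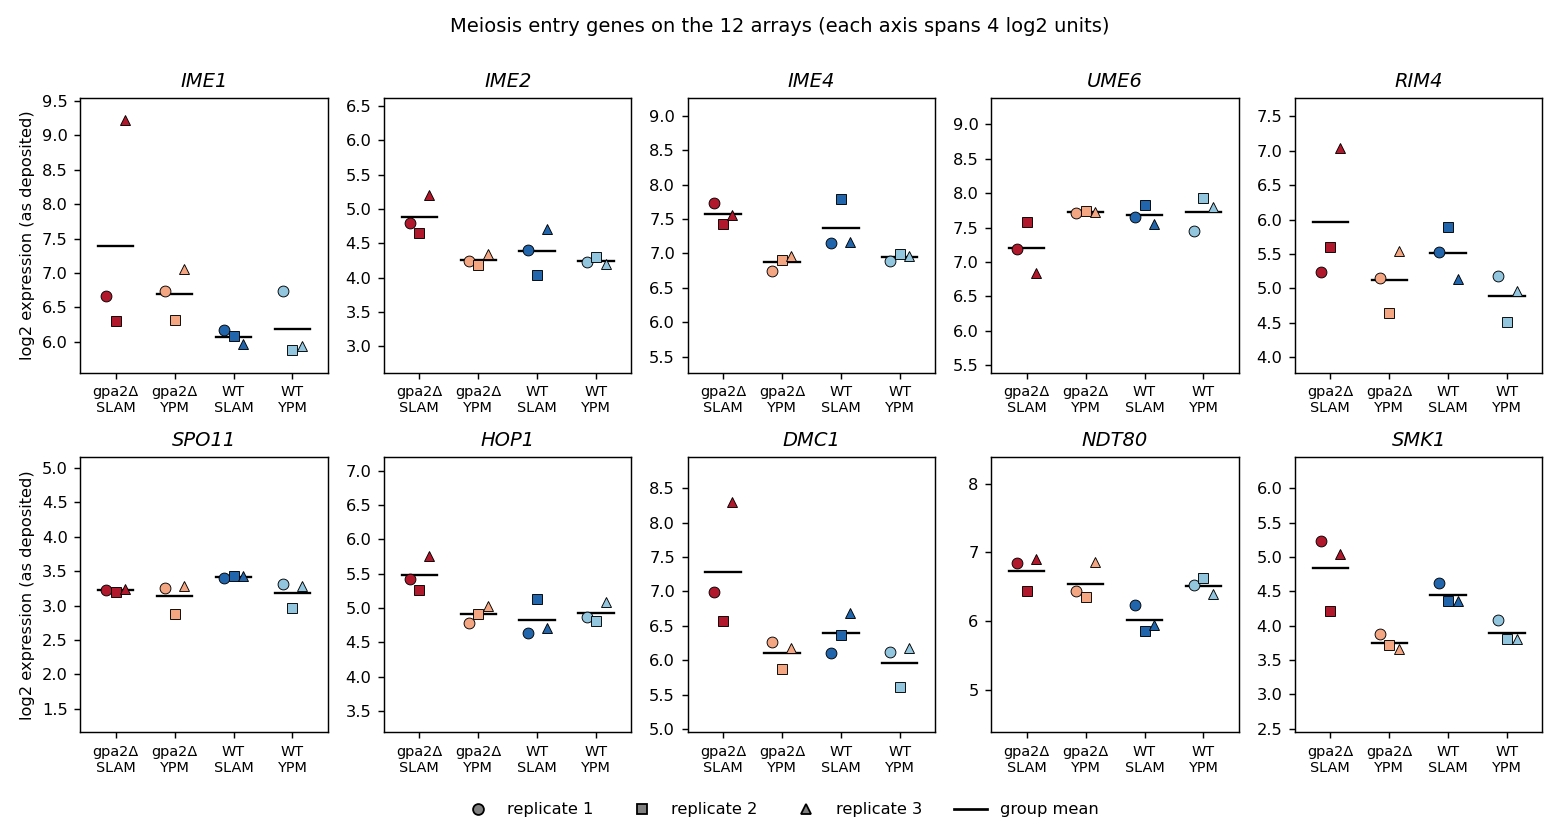
Log2 expression as deposited (vertical axis, each panel spanning 4 log2 units) of the 10 genes in gpa2 deletion cells in SLAM and YPM and in wild-type cells in SLAM and YPM. Points are single arrays, shapes the replicate numbers assigned here and bars the means of 3. IME1, RIM4 and DMC1 read 9.23, 7.04 and 8.30 on replicate 3 of the deletion cells in SLAM, above every other array.

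IME1 (YJR094C), the activator at which the signals for meiotic entry meet, read 6.67, 6.30 and 9.23 in deletion cells in SLAM, against 6.73, 6.31 and 7.06 in deletion cells in YPM. In wild-type cells it read 6.18, 6.08 and 5.97 in SLAM, against 6.74, 5.87 and 5.94 in YPM. Thus 1 deletion culture in SLAM stood far above the rest, while the other SLAM arrays of both strains lay within the range of the YPM arrays. The difference between SLAM and YPM was 0.70 (SE 0.59, 95% interval -0.59 to 1.98, adjusted p = 0.41) in deletion cells and -0.11 (SE 0.59, interval -1.39 to 1.18, adjusted p = 0.922) in wild-type cells. Without that culture the deletion difference was -0.22 (adjusted p = 0.659), so its sign rested on 1 array. The pooled within-group SD of IME1 was 0.86, larger than that of 96.3% of genes, against a median of 0.36.

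UME6 (YDR207C), which encodes the DNA-binding protein that represses early meiotic genes in growing cells and works with Ime1 in meiosis, was the one member with a negative difference in deletion cells. It read 7.19, 7.57 and 6.85 in deletion cells in SLAM, against 7.71, 7.73 and 7.73 in YPM, and these groups were separate. Wild-type cells read 7.66, 7.83 and 7.55 in SLAM, against 7.45, 7.93 and 7.79 in YPM, and overlapped. The difference was -0.52 (SE 0.22, adjusted p = 0.1) in deletion cells and -0.05 (SE 0.22, adjusted p = 0.911) in wild-type cells, neither passing. In deletion cells UME6 passed without SLAM replicate 2 (-0.71, adjusted p = 0.0357) and with array weights (-0.52, adjusted p = 0.00457). With array weights, whose estimation stopped before reaching its tolerance, 3323 of the 5656 genes passed in this comparison. Without SLAM replicate 3 UME6 stood at -0.35 (adjusted p = 0.288). The lowest UME6 reading, 6.85, was on the array with the highest IME1. There it lay 0.53 under the mean of its group mates, at percentile 25 of all genes on that array, and a link between the 2 readings was not tested.

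IME4 (YGL192W), an RNA methyltransferase needed for entry into sporulation, read 7.73, 7.43 and 7.56 in deletion cells in SLAM, against 6.74, 6.90 and 6.97 in deletion cells in YPM. Wild-type cells read 7.15, 7.79 and 7.16 in SLAM, against 6.90, 6.997 and 6.96 in YPM. In both strains every SLAM array lay above every YPM array. IME4 was 1.63-fold higher in SLAM in deletion cells (log2 0.70, SE 0.21, adjusted p = 0.0272). In wild-type cells the difference was 0.42 (SE 0.21, adjusted p = 0.195). The deletion call was lost without SLAM replicate 1 or 3 or without YPM replicate 1 or 2 of that strain, with adjusted p up to 0.103 over the alternatives tried and a difference from 0.63 to 0.88.

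IME2 (YJL106W), the meiosis-specific kinase that Ime1 switches on, read 4.80, 4.66 and 5.20 in deletion cells in SLAM, against 4.24, 4.18 and 4.35 in deletion cells in YPM. Wild-type cells read 4.41, 4.03 and 4.71 in SLAM, against 4.22, 4.30 and 4.20 in YPM. The deletion groups did not overlap and the wild-type groups did. The deletion difference of 0.63 (SE 0.22) lay at the edge of the threshold (adjusted p = 0.0497), and the call was lost without 9 of the 12 arrays left out in turn: SLAM replicates 1 and 3 and all YPM replicates of the deletion strain, and SLAM replicate 1 and all YPM replicates of the wild type. In wild-type cells the difference was 0.14 (SE 0.22, adjusted p = 0.702). Because both groups read under 5.60, no fold change is given.

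RIM4 (YHL024W), an RNA-binding protein of meiosis that acts on early and middle steps, read 5.24, 5.59 and 7.04 in deletion cells in SLAM, against 5.15, 4.64 and 5.54 in deletion cells in YPM. Wild-type cells read 5.53, 5.88 and 5.13 in SLAM, against 5.18, 4.50 and 4.96 in YPM. The groups overlapped in both strains. Its differences of 0.85 (SE 0.42, adjusted p = 0.156) in deletion cells and 0.63 (SE 0.42, adjusted p = 0.329) in wild-type cells did not pass. Without deletion SLAM replicate 3 the deletion value was 0.30 (adjusted p = 0.544).

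Among the genes of recombination, DMC1 (YER179W), the meiosis-specific strand-exchange protein, read 6.998, 6.57 and 8.30 in deletion cells in SLAM, against 6.27, 5.88 and 6.18 in deletion cells in YPM. Wild-type cells read 6.11, 6.37 and 6.69 in SLAM, against 6.12, 5.60 and 6.17 in YPM. All deletion SLAM arrays lay above the deletion YPM arrays, and the wild-type groups overlapped. DMC1 was 2.27-fold higher in SLAM in deletion cells (log2 1.18, SE 0.38, adjusted p = 0.0346), and in wild-type cells the difference was 0.42 (SE 0.38, adjusted p = 0.474). Without deletion SLAM replicate 3 it was 1.60-fold (log2 0.67, adjusted p = 0.0947). The call was also lost without deletion SLAM replicate 1 or any of the 3 deletion YPM replicates. The other DMC1 probe set, which correlated with the first at Pearson r = 0.87 over the 12 arrays, read 6.05, 5.90 and 7.01 in deletion cells in SLAM, against 6.07, 5.91 and 5.66 in deletion cells in YPM. Wild-type cells read 5.39, 5.63 and 5.87 in SLAM, against 5.48, 5.20 and 6.03 in YPM. On this probe set the groups overlapped in both strains, at a difference of 0.44 in deletion cells and 0.06 in wild-type cells.

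HOP1 (YIL072W), a protein of the meiotic chromosome axis, read 5.42, 5.27 and 5.76 in deletion cells in SLAM, against 4.78, 4.92 and 5.03 in deletion cells in YPM. Wild-type cells read 4.63, 5.13 and 4.71 in SLAM, against 4.88, 4.81 and 5.08 in YPM. The deletion groups were separate and the wild-type groups overlapped. The differences were 0.57 (SE 0.21, adjusted p = 0.0631) in deletion cells and -0.10 (SE 0.21, adjusted p = 0.8) in wild-type cells. HOP1 passed in deletion cells without SLAM replicate 2 (adjusted p = 0.0486) or wild-type SLAM replicate 2 (0.0304). It also passed with the floor (0.0355) and with array weights (0.00209), where 3323 of the 5656 genes passed.

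SPO11 (YHL022C), the enzyme that makes the DNA breaks of meiotic recombination, varied least, between 2.88 and 3.43 over the 12 arrays. It averaged 3.22 ± 0.03 in deletion cells in SLAM and 3.14 ± 0.22 in deletion cells in YPM (SD, n = 3 each). In wild-type cells it averaged 3.42 ± 0.02 in SLAM and 3.19 ± 0.19 in YPM. Its pooled within-group SD of 0.15 was larger than that of 2.67% of genes. The differences, 0.08 (SE 0.19, adjusted p = 0.787) and 0.23 (SE 0.19, adjusted p = 0.434), did not pass, and all readings lay in the range where no fold change is given.

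Of the middle-stage genes, NDT80 (YHR124W), the transcription factor of the middle genes, read 6.84, 6.43 and 6.90 in deletion cells in SLAM, against 6.43, 6.34 and 6.86 in deletion cells in YPM. Wild-type cells read 6.23, 5.86 and 5.94 in SLAM, against 6.53, 6.63 and 6.39 in YPM. The deletion groups overlapped, and all wild-type SLAM arrays lay below the wild-type YPM arrays. The differences were 0.18 (SE 0.22, adjusted p = 0.571) in deletion cells and -0.51 (SE 0.22, adjusted p = 0.132) in wild-type cells.

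SMK1 (YPR054W), a MAP kinase of spore wall formation, read 5.23, 4.22 and 5.05 in deletion cells in SLAM, against 3.88, 3.71 and 3.67 in deletion cells in YPM. Wild-type cells read 4.63, 4.35 and 4.35 in SLAM, against 4.08, 3.81 and 3.80 in YPM. The groups did not overlap in either strain. The deletion difference of 1.08 (SE 0.26, adjusted p = 0.00848) passed with each of the 12 arrays left out in turn. It was 0.55 in wild-type cells (SE 0.26, adjusted p = 0.161). All SMK1 readings lay under 5.60, and with values under log2 4.32, the 10th percentile of the array values, set to that level the deletion difference shrank to 0.55 (adjusted p = 0.0752).

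**Figure D2:**
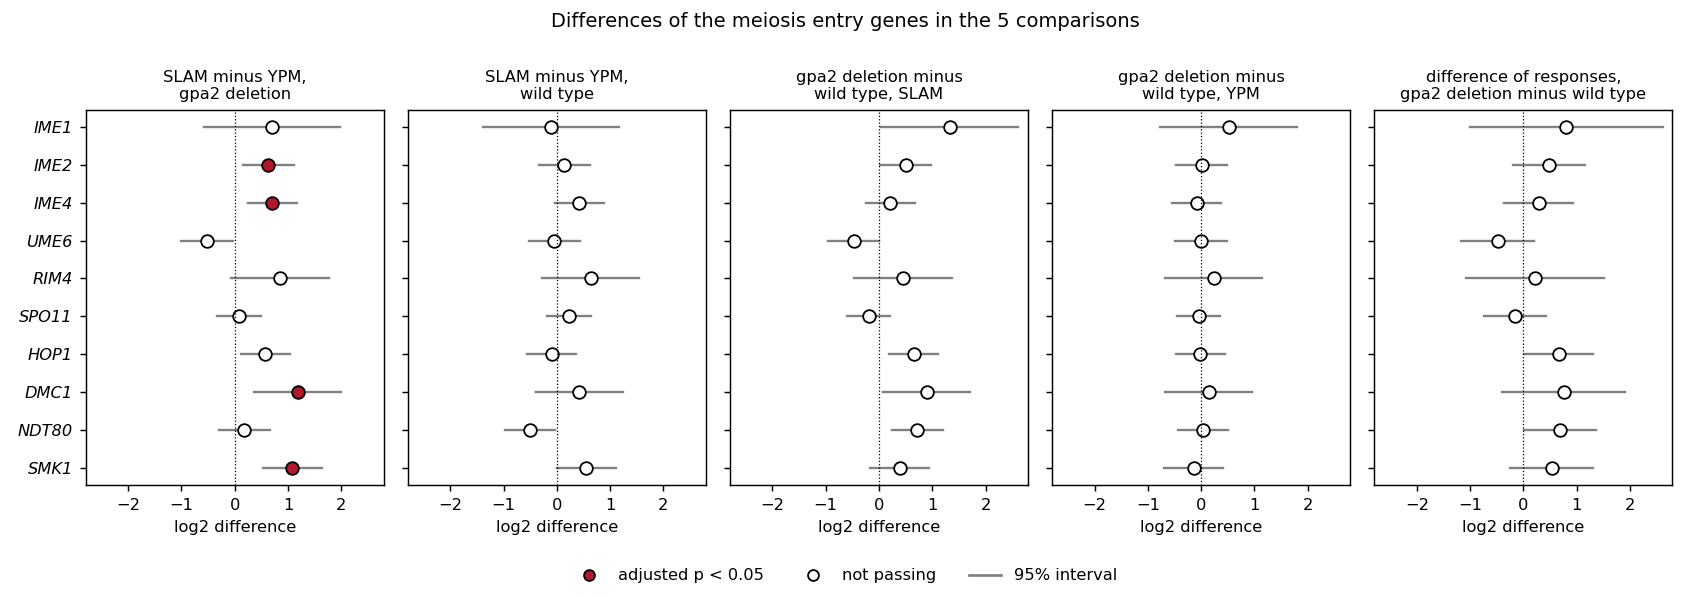
Log2 differences (horizontal axes) of the 10 genes in the 5 comparisons, with 95% intervals from limma as grey lines; filled points passed at adjusted p < 0.05. Filled points stand in 1 panel alone, SLAM minus YPM in the deletion strain, for IME2, IME4, DMC1 and SMK1.

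Counted by overlap of the 3 arrays of each group, 5 of the 10 genes were higher and 1 lower in SLAM without overlap in deletion cells. Over all genes, 44.6% were separate in this way, 22.9% higher and 21.7% lower. In wild-type cells 3 were higher and 1 lower, beside 35.5% of all genes (15.2% higher and 20.4% lower). The 3 were IME4, SMK1 and SPO11 and the 1 was NDT80.

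The strains were then compared within each medium, which asks whether the deletion changed the level of these genes at all. In YPM none of the 10 passed, and over all genes 0.0177% did, namely GPA2 itself. No member had an unadjusted p under 0.05 in YPM by limma, where 3.89% of all genes did, and the groups overlapped in all 10, where 19.2% of all genes were separate (5.99% higher and 13.2% lower). The median difference was 0.01. The intervals were wide for IME1, at 0.52 with a 95% interval from -0.77 to 1.80, and narrower for UME6 (-0.48 to 0.48) and HOP1 (-0.47 to 0.45).

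In SLAM again none of the 10 passed, beside 2.81% of all genes (1.08% higher and 1.73% lower), and 5 had an unadjusted p under 0.05 by limma, where 22.9% of all genes did. These 5 were all higher in deletion cells. NDT80 was higher by 0.72 (SE 0.22, 95% interval 0.25 to 1.19, adjusted p = 0.0809), with deletion arrays at 6.43 to 6.90 and wild-type arrays at 5.86 to 6.23. HOP1 differed by 0.66 (SE 0.21, interval 0.20 to 1.11, adjusted p = 0.0922), and its groups did not overlap either. IME1 differed by 1.32 (SE 0.59, interval 0.04 to 2.61, adjusted p = 0.205), again without overlap. Without deletion SLAM replicate 3 the IME1 difference was 0.41 (adjusted p = 0.498). DMC1 differed by 0.90 (SE 0.38, adjusted p = 0.176) and IME2 by 0.50 (SE 0.22, adjusted p = 0.195), with overlapping groups. UME6 differed by -0.48 (SE 0.22, adjusted p = 0.225). Without deletion SLAM replicate 3, DMC1 differed by 0.39 (adjusted p = 0.454) and UME6 by -0.30 (adjusted p = 0.488), and without wild-type SLAM replicate 2, IME2 differed by 0.33 (adjusted p = 0.44). By overlap, 3 genes were higher and SPO11 was lower in deletion cells, where 21.4% of all genes were separate (10.8% higher and 10.6% lower).

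The difference of the 2 strains' responses to SLAM was tested directly. None of the 10 genes passed, with a smallest adjusted p of 0.98, and no gene of the 5656 did (0%), though 228 (4.03%) had an unadjusted p under 0.05 by limma. The largest values were IME1 at 0.81 (SE 0.83, 95% interval -1.01 to 2.62), DMC1 at 0.76 (SE 0.53, interval -0.40 to 1.91), NDT80 at 0.69 (SE 0.31, interval 0.02 to 1.36) and HOP1 at 0.67 (SE 0.30, interval 0.02 to 1.32). Without deletion SLAM replicate 3 they were -0.11 for IME1, 0.25 for DMC1, 0.60 for NDT80 and 0.53 for HOP1. So the calls made in the deletion strain and not in the wild type were not shown to differ between strains. These comparisons share arrays, and their values are given side by side for that reason.

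In the order of group means, deletion cells in SLAM were highest for 8 of the 10 genes, the exceptions being UME6, where they were lowest, and SPO11, where wild-type SLAM was highest. Without deletion SLAM replicate 3, IME1 differed by -0.22 from deletion YPM and RIM4 by -0.10 from wild-type SLAM, so neither was highest there. The share of all genes with deletion SLAM highest was not counted. Neighbours in the order of means mostly overlapped. For IME1, IME2, RIM4, DMC1 and UME6 no pair of neighbouring groups was separate. For IME4 and SMK1 both SLAM groups lay clear of both YPM groups, and for HOP1 the deletion SLAM group alone lay clear of the next. For NDT80 the wild-type SLAM group alone lay below the next, and for SPO11 it alone lay above.

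Replicate 3 of the deletion cells in SLAM stood apart for several of the 10 genes. Against the mean of its 2 group mates it was higher by 2.74 for IME1, by 1.63 for RIM4 and by 1.52 for DMC1, at the 99.9, 98.5 and 98.1 percentiles of all genes on that array. IME2 was higher by 0.48, HOP1 by 0.41, SMK1 by 0.32 and NDT80 by 0.27, at the 83.2, 80.6, 76.9 and 73.9 percentiles. SPO11 and IME4 stood at 0.04 and -0.02 (percentiles 61.1 and 56.9), and UME6 was lower by 0.53 (percentile 25). The median over the 10 was 0.37, beside -0.13 over all genes. On the same array the median was 0.22 for the 32 measured early meiotic genes described below, 0.31 for 36 middle genes and 0.14 for 8 late genes. Other arrays had larger medians for these lists. On deletion YPM replicate 3 the early genes stood at 0.32 and the late genes at 0.54, and on wild-type SLAM replicate 3 the middle genes stood at 0.38. On deletion SLAM replicate 3 the spore wall gene SPS100 was higher by 3.22 and FAR1, an inhibitor of G1 cyclin-kinase complexes, by 2.08. The B-type cyclin genes CLB1 and CLB6 were lower by 2.04 and 1.71, and YHP1, whose product binds the IME1 promoter, by 1.98. SOK2 and RME1, both known as repressors of IME1, were higher by 1.36 and 0.80, and the median over the 25 upstream regulators described below was -0.19. CLB1, CLB6 and RME1 moved further on other arrays. CLB1 was lower by 2.68 on wild-type SLAM replicate 2. On deletion YPM replicate 3, CLB6 was lower by 1.99 and RME1 higher by 1.49. For SPS100, FAR1, YHP1 and SOK2 the shift was largest on deletion SLAM replicate 3. These 7 genes were singled out after their values were seen, and their part in the IME1 reading was not tested.

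**Figure D3:**
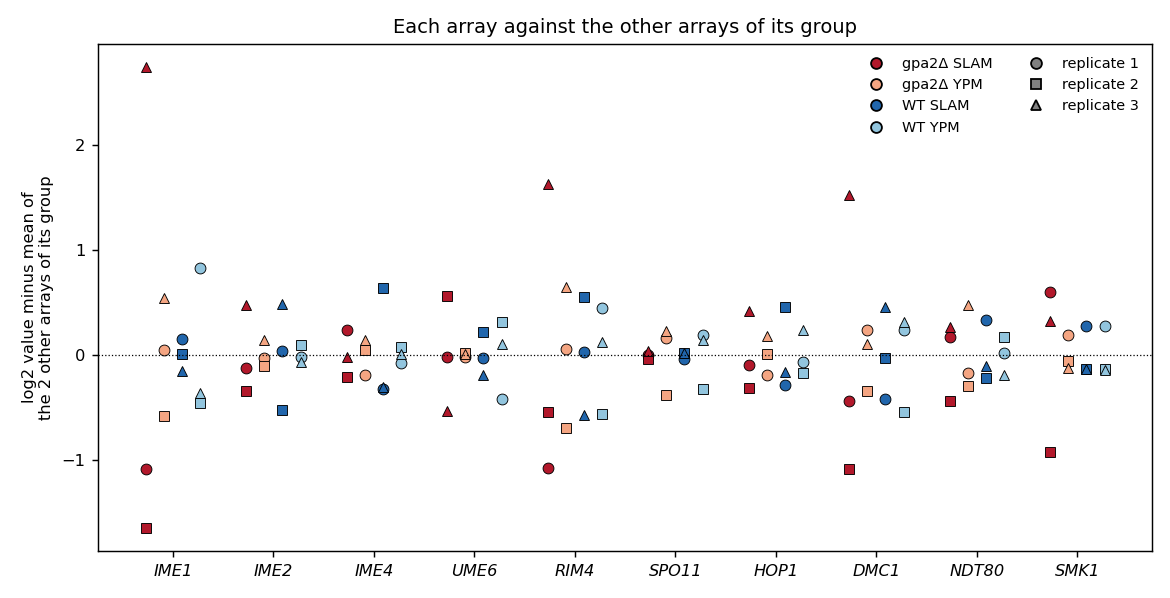
Log2 value of each array minus the mean of the 2 other arrays of its group (vertical axis) for the 10 genes; colours mark the groups and shapes the replicates. Replicate 3 of the deletion cells in SLAM lies at 2.74 for IME1, 1.63 for RIM4 and 1.52 for DMC1.

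Of the other cultures, deletion YPM replicate 3 and wild-type SLAM replicate 2 lay away from their groups on the first principal component of all genes, at -6.17 against -27.3 and -34.5, and at -10.8 against 19.4 and 28.4. Deletion YPM replicate 3 was the highest array of its group for 7 of the 10 genes, with a median of 0.16 above its mates. Wild-type SLAM replicate 2 had a median of 0.01. Deletion SLAM replicate 3 lay at 54.9 on the first component, against 52.1 and 42.8, and at -21.0 on the second, against -2.16 and 17.5. A further fit left out deletion YPM replicate 3 and wild-type SLAM replicate 2 and kept deletion SLAM replicate 3. IME2, IME4 and SMK1 then passed in deletion cells in SLAM together with HOP1 (log2 0.63, adjusted p = 0.036). DMC1 did not (log2 1.22, adjusted p = 0.0592), and none passed in wild-type cells. In that fit 35.1% of all genes passed in deletion cells and 27% in wild-type cells.

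The regulators upstream of IME1 and the partners of Ume6 were taken next, as a list of 25 genes, all measured. In deletion cells 5 rose in SLAM and none fell (median 0.22), and in wild-type cells 1 rose and none fell (median 0.05). The shares, 20% and 4%, lay under the 28.1% and 12.6% of all genes that passed in either direction. Of all genes, 13.4% and 5.23% passed as higher, so the 20% lay above its share and the 4% under. RIM15, a kinase that relays nutrient signals to meiosis, rose 1.89-fold (log2 0.92, SE 0.22, adjusted p = 0.00925) in deletion cells and 1.84-fold (log2 0.88, SE 0.22, adjusted p = 0.0277) in wild-type cells. RIM8, of the pH-sensing pathway that processes Rim101, rose by 1.41 (SE 0.30, adjusted p = 0.00507) in deletion cells, RIM11, a kinase that acts on Ime1 and Ume6, by 0.81 (SE 0.21, adjusted p = 0.0149) and RIM21, a pH sensor, by 0.59 (SE 0.18, adjusted p = 0.031). The fifth was SSN8, the cyclin of the Mediator kinase that represses meiotic genes, at 0.71 (adjusted p = 0.0456). RIM8 and RIM15 passed in deletion cells with each array left out in turn, and RIM15 in wild-type cells in 7 of the 12 such fits. RME1, a repressor of IME1, read 8.85, 7.26 and 8.86 in deletion cells in SLAM, against 6.77, 6.33 and 8.04 in deletion cells in YPM. It did not pass, at 1.28 (SE 0.50, adjusted p = 0.0801) there and 1.12 (SE 0.50, adjusted p = 0.149) in wild-type cells.

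For the 5 listed partners of Ime4, 2 rose in deletion cells in SLAM and none passed in wild-type cells (medians 0.76 and 0.11). Across all genes 28.1% and 12.6% passed, or 13.4% and 5.23% as higher. VIR1, a subunit of the methyltransferase complex, averaged 7.83 in deletion cells in SLAM and 6.87 in deletion cells in YPM, and rose by 0.96 (SE 0.23, adjusted p = 0.00925) with each array left out in turn. DYN2, a dynein light chain, rose by 0.76 (SE 0.24, adjusted p = 0.0316). SLZ1, a meiosis-specific subunit, differed by 0.79 in both strains (SE 0.35, adjusted p = 0.119 in deletion and 0.149 in wild-type cells), while in deletion cells MUM2 stood at 0.13 and KAR4 at -0.11.

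The early meiotic genes other than the members numbered 32 with a probe set, of 33 listed. In each strain 1 rose and none fell in SLAM (3.12%). Across all genes 28.1% passed in deletion cells (13.4% as higher) and 12.6% in wild-type cells (5.23% as higher). In each strain 28 of the 32 differences lay above 0, with medians of 0.29 in deletion cells and 0.33 in wild-type cells. REC107, a protein of the break-forming complex, rose 2.33-fold in deletion cells (log2 1.22, SE 0.27, adjusted p = 0.00541) and stood at 0.84 in wild-type cells (SE 0.27, adjusted p = 0.0557). MER1, a meiotic splicing factor, rose by 1.62 in wild-type cells (SE 0.48, adjusted p = 0.045) and stood at 0.71 in deletion cells (SE 0.48, adjusted p = 0.292). It read 5.32, 6.20 and 7.09 in wild-type cells in SLAM, against 5.07, 4.25 and 4.42 in wild-type cells in YPM, and passed in 5 of 12 fits with an array left out. As a measure of how dim probe sets moved, the 436 other genes averaging at or under 5.60 had medians of 0.05 in deletion cells and 0.04 in wild-type cells. Of these 436 genes, 10.1% passed in deletion cells and 6.65% in wild-type cells, lower shares than over all genes. These measures of the 436 genes were added after the values were seen.

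In a list of 9 genes taken as repressors and coactivators of the middle genes, SUM1 fell in both strains. In deletion cells 3 of the 9 passed (33.3%, beside 28.1% of all genes) and in wild-type cells 1 (11.1%, beside 12.6%). SUM1, which encodes the DNA-binding repressor of NDT80 and other middle genes, read 9.04, 9.28 and 9.16 in deletion cells in SLAM, against 9.90, 9.90 and 9.57 in deletion cells in YPM. Wild-type cells read 9.52, 8.90 and 8.89 in SLAM, against 9.78, 10.002 and 10.04 in YPM. No SLAM array reached the lowest YPM array of its strain. SUM1 fell 1.55-fold in deletion cells (log2 -0.63, SE 0.22, adjusted p = 0.0478) and 1.79-fold in wild-type cells (log2 -0.84, SE 0.22, adjusted p = 0.0314), and passed in 4 and 8 of the 12 fits with an array left out. GSM1, a zinc cluster protein, rose by 0.94 (SE 0.24, adjusted p = 0.0119) and CPR1, a cyclophilin on a shared probe set, by 0.49 (SE 0.17, adjusted p = 0.049) in deletion cells. GSM1 is 1 of the 3 that passed, and whether it acts on the middle genes was not tested. CPR1 passed in 1 of the 12 fits.

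The 36 middle sporulation genes had 4 rises in deletion cells and 5 in wild-type cells, with no falls (medians 0.31 and 0.42). These are 11.1% and 13.9% of the list, beside 28.1% and 12.6% of all genes passing, or 13.4% and 5.23% passing as higher. SHC1, an activator of chitin synthase for the spore wall, had the largest, at 2.56 in deletion cells (SE 0.55, adjusted p = 0.00511) and 2.54 in wild-type cells (SE 0.55, adjusted p = 0.0176). It read 8.65, 7.28 and 8.68 in deletion cells in SLAM, against 5.79, 4.87 and 6.26 in deletion cells in YPM, and 8.37, 6.09 and 7.35 in wild-type cells in SLAM, against 4.64, 5.00 and 4.56 in wild-type cells in YPM. SLAM and YPM arrays were thus separate in both strains. ADY3, a protein of the prospore membrane edge, rose by 2.47 in deletion cells (SE 0.54, adjusted p = 0.00548) and 1.99 in wild-type cells (SE 0.54, adjusted p = 0.035). GIP1, a phosphatase targeting subunit for spore formation, rose by 1.61 (SE 0.52, adjusted p = 0.0381) and SPS19, a peroxisomal reductase, by 1.07 (SE 0.31, adjusted p = 0.0233) in deletion cells. PES4 (1.63, SE 0.43, adjusted p = 0.0322), DON1 (1.33, SE 0.37, adjusted p = 0.0369) and MIP6 (0.89, adjusted p = 0.0472) made up the wild-type rises. SHC1 and ADY3 passed in deletion cells with each array left out in turn. In wild-type cells SHC1 passed in 9, PES4 in 8, ADY3 and DON1 in 6 and MIP6 in 4 of the 12 such fits.

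Of 9 late genes, 8 were measured. In deletion cells 1 (12.5%) rose in SLAM, the intracellular glucoamylase gene SGA1, by 1.86 (SE 0.49, adjusted p = 0.015), and none passed in wild-type cells (medians 0.46 and 0.19). Across all genes 28.1% passed in deletion cells (13.4% as higher) and 12.6% in wild-type cells (5.23% as higher). SGA1 read 10.20, 9.92 and 11.30 in deletion cells in SLAM, against 8.13, 7.91 and 9.81 in deletion cells in YPM, and lost the call without SLAM replicate 3 or without YPM replicate 1 or 2. The genes for dityrosine of the spore wall, DIT1 and DIT2, read from 3.19 to 5.18 on all arrays. No gene of these 6 lists passed between the strains in either medium or in the difference of responses. Of all genes 0.0177% passed in YPM, 2.81% in SLAM and 0% in the difference of responses. At an unadjusted p under 0.05 by limma, 1 of 115 genes did in YPM, 10 (8.70%) in SLAM and 1 in the difference of responses, beside 3.89%, 22.9% and 4.03% of all genes.

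**Figure D4:**
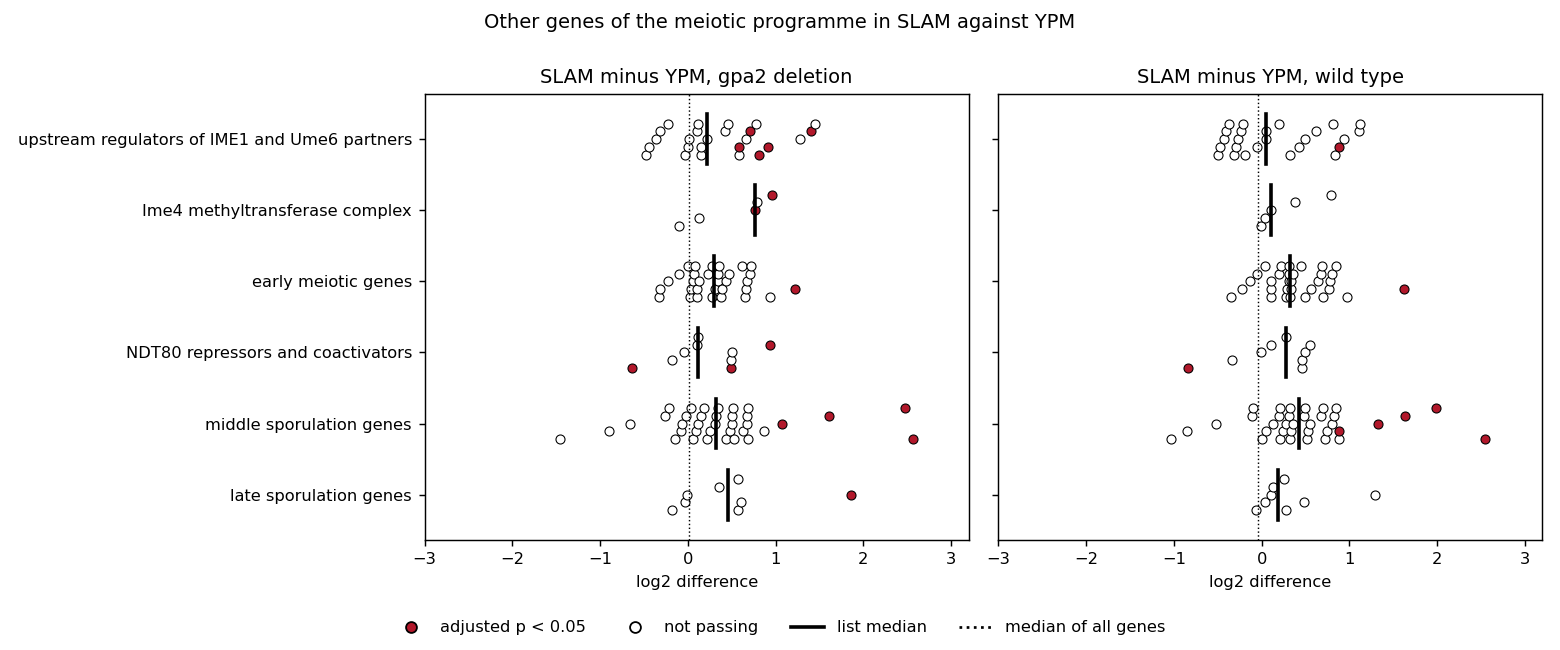
Log2 differences between SLAM and YPM (horizontal axes) of the genes of 6 lists in gpa2 deletion cells and wild-type cells; each point is 1 gene, filled where adjusted p < 0.05, thick bars are list medians and the dotted line is the median of all genes. SHC1 and ADY3 are the points furthest right in both panels, and SUM1 is the filled point left of 0.

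Genes with the most similar pattern were sought for the 4 members that passed, by Pearson correlation over the 12 arrays, which fall into 4 groups and share their media. For IME2 these were ADY2 (r = 0.95) and GAL11 (0.94), for IME4 PDX3 (0.96) and SNF7 (0.95), and for SMK1 AVO2 (0.96) and BYE1 (0.96). For DMC1 they were YER188C-A (0.94), on a shared probe set, and YDL218W (0.93).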

How the data were processed

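Log2 expression values for 9335 probe sets on 12 arrays were used as deposited by the authors; GCOS 1.2, MAS5 and RMA appear in the submitters' processing notes, which do not tell which one gave these values. Array medians lay between 7.33 and 7.50. No sequences or coordinates were used. After 60 control probe sets, 328 with several symbols and 2443 with none were left out, the probe set with the highest mean was kept for each of 5656 genes. Using limma 3.58.1 (R 4.3.3), 4 group means were estimated from the 12 arrays together (8 residual and 4.11 prior degrees of freedom), with two-sided p adjusted by Benjamini-Hochberg over the 5656 genes and 0.05 as threshold. The fitting code was tested on simulated data. Errors are standard errors unless marked SD; 3 arrays a group limit the precision.

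All 10 members are named in every comparison. For each other list, up to 4 passing genes with the smallest p are named, and SSN8, MIP6, RME1, SLZ1, MUM2, KAR4, DIT1, DIT2, SOK2 and the a/alpha-repressed genes named were added after their values were seen. List symbols were matched through synonyms, and HED1 and SPO24 were not analysed here. Members and lists were chosen with earlier results of these data known. Alternatives were quantile normalization, median centring, a floor at the 10th percentile, leaving out the dimmest genes, all probe sets, only the arrays compared, a variance trend with robust moderation, array weights, leaving out both arrays that stood apart, a threshold of 0.01, and fits lacking 1 array each.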

Additional observations from a re-analysis of the deposited data

How the results depend on the processing

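In 1045 recomputed member differences, no called difference turned its sign, 26 lost a call and 14 gained one, while 37 that passed neither way changed sign, 21 of them between the strains in YPM. For SLAM against YPM in deletion cells the count of 4 passing members became 2 with only the arrays of that comparison, 7 with array weights, 1 at adjusted p < 0.01, and 0 of the 1 member (UME6) kept when the dimmest genes were left out. It ranged from 1 to 6 with an array left out in turn: 1 without SLAM replicate 1 or 3 or YPM replicate 1 or 2, 2 without YPM replicate 3 and 6 without SLAM replicate 2, all of the deletion strain. In wild-type cells it was 0, or 1 (SMK1) with array weights, and 0 to 0 with an array left out. Between strains in SLAM it was 0, or 1 (NDT80) after quantile normalization and 3 with array weights; for the difference of responses 1 (HOP1) with array weights; in YPM 0 throughout. Over all genes, calls for SLAM against YPM were 1592 in deletion cells (945 without YPM replicate 2 of that strain to 1955 without wild-type SLAM replicate 2, and 820 at adjusted p < 0.01). In wild-type cells they were 711 (62 without YPM replicate 2 to 1414 without SLAM replicate 2 of that strain, 376 with only the arrays compared, 1525 without both arrays that stood apart and 70 at adjusted p < 0.01). Between strains in SLAM 159 became 4 without deletion SLAM replicate 1, 385 without wild-type SLAM replicate 3, 93 with the floor, 41 with all probe sets, 1 with only the arrays compared, 72 without both arrays and 2 at adjusted p < 0.01. Array weights, whose estimation stopped before reaching its tolerance, gave 3323, 2454 and 1054 in these comparisons, 234 between strains in YPM and 230 for the difference of responses, where the main counts were 1 and 0. No paired analysis was run because the labels give no replicate numbers and name no culture or day shared between groups. With 3 arrays a group and no detection calls, small changes of the dim probe sets could not be separated from background.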
